A study of Homo sapiens with 15 samples.

Results

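The genes described here encode 7 families of amino acid carriers, most of which work at the plasma membrane. They are the protein-coding genes whose symbols start with SLC1A, SLC3A, SLC6A, SLC7A, SLC36A, SLC38A or SLC43A. In all, 60 of the 58395 genes counted met this rule, which used names and no measured value. A gene was called measured where it reached 1 CPM (the usual depth-scaled count of a gene, for this rule relative to the plain library total) in at least 3 libraries, and 28 of the 60 genes were measured. All 28 of them met the rule on the TMM-scaled totals used below as well. These were 4 of 7 SLC1A genes, 1 of 2 SLC3A genes, 6 of 19 SLC6A genes, 7 of 14 SLC7A genes, 2 of 4 SLC36A genes, 6 of 11 SLC38A genes and 2 of 3 SLC43A genes. SLC7A6OS meets the name rule but is named only for lying on the strand opposite SLC7A6. It is not known as a carrier.

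RNA was sequenced from the H1299 cell line, which stems from a human non-small cell lung carcinoma, after growth in full medium with serum followed by 12 h in serum-free RPMI medium. The 5 media held neither glucose nor glutamine, glucose alone (5 mM), glutamine alone (4 mM), both nutrients at those doses, or glucose (5 mM) with NH4Cl (4 mM), a salt that supplies ammonium. The media differed in these 3 additions as labelled, and all cells were of the same line with no genetic change named. Each medium had 3 libraries, 15 in all. The labels speak of triplicates and name no day or batch. The p-values therefore measure the spread of these samples alone, and that spread may be technical.

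Amino acids cross the membrane on carriers that differ in what they exchange and what drives them. Heavy chains of the SLC3A family bring light chains of the SLC7A family to the cell surface, where the pairs exchange amino acids such as leucine, cystine and glutamate. SLC38A carriers take up glutamine and other small neutral amino acids with sodium, and SLC1A4 and SLC1A5 exchange neutral amino acids such as glutamine and serine. Several carrier genes are known targets of ATF4, the transcription factor of the response to amino acid shortage.

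Library totals ran from 14914127 to 19938691 counts, so a floor of 3 counts lay between 0.15 and 0.201 CPM. Such floors hold for counting error alone, because the reads carry no molecular identifiers. The TMM factor, which scales a library total by the bulk of genes, was 0.793 with neither nutrient and 1.006 to 1.086 in the other media. In 3 libraries (neither nutrient replicate 2, glucose alone replicate 1, both nutrients replicate 3) 12204 to 16385 genes had 1 to 5 counts, against 7515 to 9466 genes in the other 12. The keratins KRT8 and KRT18 and the mesenchymal genes VIM, CDH2 and FN1 were above 1 CPM in 15 of 15 libraries. EPCAM, CDH1 and the lung lineage genes NKX2-1 and SFTPB were below it in every library. Epithelial KRT19 reached it in 12 libraries, at means of 1.09 to 1.59 CPM, and the lung lineage gene NAPSA in 2. Of 9 fibroblast, endothelial and leukocyte markers COL1A1 alone reached 1 CPM in 3 libraries, and the 3 leukocyte markers had at most 12 counts in a library. COL1A1 itself stood at 1.5 CPM with both nutrients and at 0.388 to 0.585 CPM in the other media, and its part in the results was not tested. Levels below are means ± SD of 3 libraries on the TMM-scaled CPM scale (n = 3 in every medium). In bulk RNA, fewer cells that express a gene and less of its RNA per cell cannot be told apart.

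**Figure D1:**
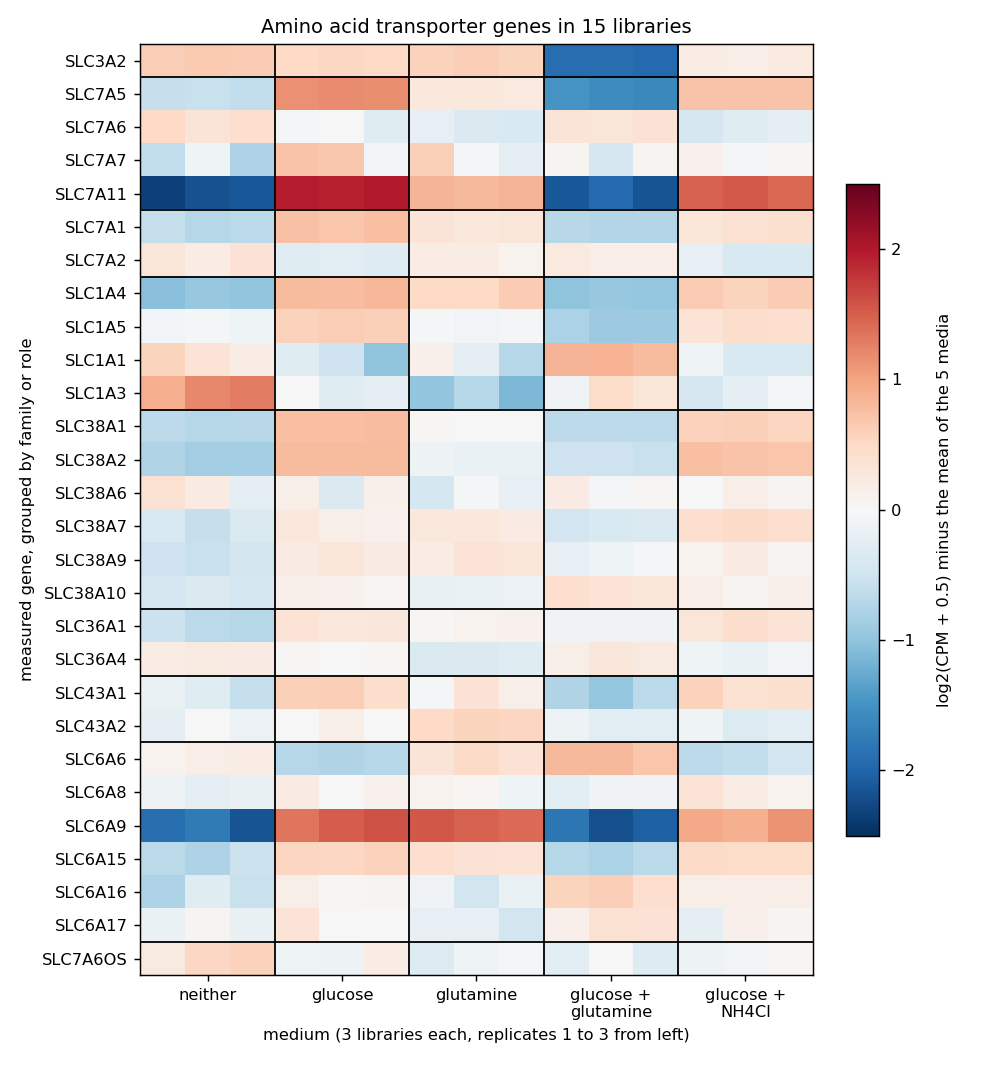
Level of each measured gene in each of the 15 libraries, as log2(CPM + 0.5) minus the gene's mean of the 5 media, with genes in rows grouped by role and libraries in columns grouped by medium. SLC7A11, SLC6A9, SLC7A5 and SLC1A4 were higher in the libraries of glucose alone and glutamine alone than in those of neither or both nutrients.

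The summed level of the 28 measured genes was 2650 ± 21.6 CPM with neither nutrient, 6010 ± 34.6 CPM with glucose alone, 3860 ± 12.5 CPM with glutamine alone, 1940 ± 24 CPM with both nutrients and 5070 ± 29 CPM with glucose and NH4Cl. On this TMM scale the libraries of no 2 media overlapped in the sum. The order of neither and both nutrients depends on the scaling, because the TMM factor was 0.793 with neither nutrient and above 1 with both. The sum was not taken relative to library totals. The sum was carried by few genes. Per kilobase of exon, the scale on which levels of different genes can be set side by side, SLC7A5 led with glucose alone at 329 CPM per kb. It was followed by SLC38A2 at 225, SLC3A2 at 124, SLC38A1 at 106 and SLC1A5 at 72.5 CPM per kb. SLC7A1 stood at 33 and SLC7A11 at 29 CPM per kb. The order changed with the medium. With neither nutrient SLC3A2 led at 136 CPM per kb, before SLC7A5 at 98.1 and SLC38A2 at 73.5. With both nutrients SLC38A2 led at 89.5 CPM per kb, before SLC7A5 at 49.7, SLC38A1 at 39.8, SLC1A5 at 26.2 and SLC3A2 at 23. The length used joins the exons of all annotated isoforms, so a gene expressed as a short isoform is understated.

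**Figure D2:**
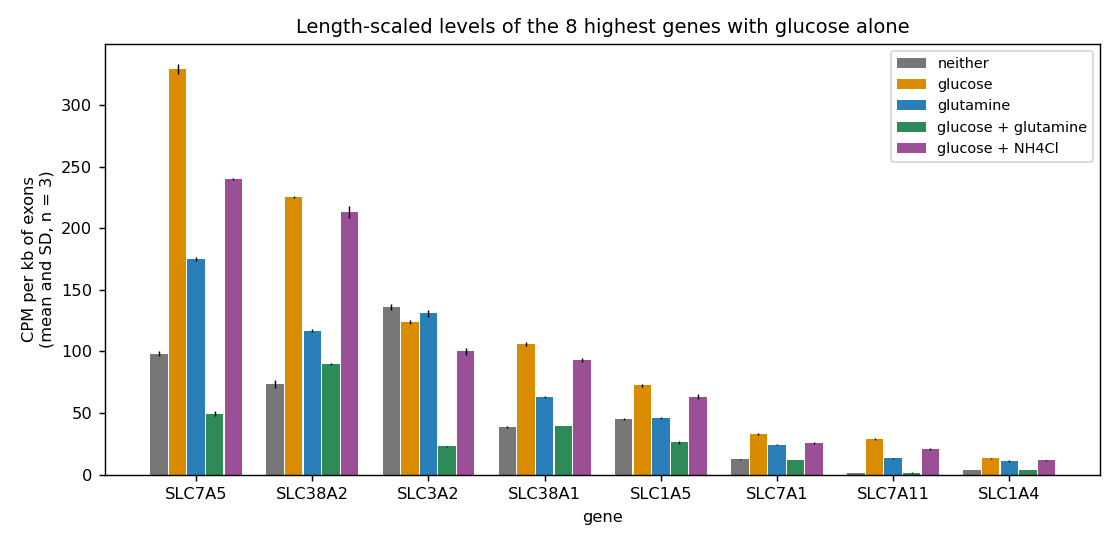
Level per kilobase of exon (CPM per kb, bars for means and lines for SD, n = 3) of 8 genes in the 5 media, ordered by their level with glucose alone. SLC3A2 falls from 136 CPM per kb with neither nutrient, where it leads, to 23 CPM per kb with both nutrients.

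SLC3A2 encodes the heavy chain CD98, which pairs with several SLC7A light chains (ENSG00000168003, chromosome 11, 62856102 to 62888875, plus strand, GRCh38 and GENCODE 29 as for all positions of genes here). Its 3 libraries stood at 694, 716 and 709 CPM with neither nutrient, 638, 653 and 642 CPM with glucose alone and 674, 698 and 671 CPM with glutamine alone. With both nutrients they stood at 120, 120 and 117 CPM, and with glucose and NH4Cl at 516, 508 and 534 CPM. The medium with both nutrients was the low one, and its libraries lay far below those of every other medium. SLC3A1, the other heavy chain gene, was not measured.

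SLC7A5 encodes LAT1, a carrier of large neutral amino acids such as leucine (ENSG00000103257, chromosome 16, 87830023 to 87869488, minus strand). Its libraries stood at 465, 475 and 456 CPM with neither nutrient, 1540, 1580 and 1560 CPM with glucose alone and 831, 833 and 821 CPM with glutamine alone. They stood at 248, 232 and 227 CPM with both nutrients and at 1140 CPM in each library with glucose and NH4Cl. No 2 media overlapped, and glucose alone was the highest. The ratio of SLC3A2 to SLC7A5 per kilobase within a library, which no scaling of libraries alters, was 1.39 ± 0.0301 with neither nutrient. It was 0.378 ± 0.00161 with glucose alone, 0.753 ± 0.0129 with glutamine alone, 0.464 ± 0.0177 with both nutrients and 0.417 ± 0.0119 with glucose and NH4Cl. The RNA of the heavy chain thus exceeded that of SLC7A5 per kilobase with neither nutrient and lay below it in the other 4 media.

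SLC7A11 encodes xCT, the light chain that imports cystine in exchange for glutamate (ENSG00000151012, chromosome 4, 138164097 to 138242349, minus strand). Its libraries stood at 13.8, 15.5 and 16 CPM with neither nutrient, 281, 274 and 283 CPM with glucose alone and 129, 126 and 130 CPM with glutamine alone. They stood at 16.1, 18.2 and 15.7 CPM with both nutrients and at 200, 209 and 195 CPM with glucose and NH4Cl. On the TMM scale the libraries of neither and both nutrients overlapped, and each nutrient alone lay far above them. The antisense gene SLC7A11-AS1 shares 865 bp of its exons and had at most 8 counts in a library.

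SLC7A6 encodes the light chain y+LAT2, which exchanges cationic for neutral amino acids. Its libraries stood at 26.7, 23.8 and 25.4 CPM with neither nutrient, 18.1, 19 and 15.2 CPM with glucose alone and 16.2, 14.6 and 14.4 CPM with glutamine alone. They stood at 23.6, 23.4 and 24.2 CPM with both nutrients and at 14, 15.2 and 15.8 CPM with glucose and NH4Cl. The 3 media in which SLC7A11 was high were the low ones for SLC7A6. SLC7A6OS shares 3371 bp of exon with SLC7A6 on the opposite strand, which is 44.4% of the exon bases of SLC7A6 and 64.5% of its own. The sources used here do not give the strand setting of the counting, so reads of both genes may have been counted for either, and both are uncertain. SLC7A6OS stood at 12.3, 15.1 and 15.7 CPM with neither nutrient, at 9.61, 9.55 and 11.9 CPM with glucose alone and at 8.06, 9.63 and 10.1 CPM with glutamine alone. It stood at 8.46, 10.3 and 8.17 CPM with both nutrients and at 9.47, 9.9 and 10.7 CPM with glucose and NH4Cl. On the TMM scale the medium with neither nutrient was highest and the other 4 overlapped in part. The related light chain SLC7A7 was near the limit of detection at 0.5 ± 0.249 to 1.43 ± 0.521 CPM. It reached 1 CPM in 7 libraries relative to library totals and in 3 on the TMM scale, the latter with glucose alone or glutamine alone.

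The cationic carriers take up arginine and lysine without a heavy chain. SLC7A1, which encodes CAT1 (ENSG00000139514, chromosome 13, 29509410 to 29595688, minus strand), had 95.9 ± 3.85 CPM with neither nutrient, 253 ± 5 CPM with glucose alone and 188 ± 3.29 CPM with glutamine alone. It had 92.3 ± 1.13 CPM with both nutrients and 196 ± 6.28 CPM with glucose and NH4Cl. As for SLC7A11, glucose alone was highest and neither and both nutrients were lowest. SLC7A2, which encodes CAT2, stood at 34, 31.2 and 35.2 CPM with neither nutrient, 22, 22.5 and 21.7 CPM with glucose alone and 30.9, 30.9 and 29.2 CPM with glutamine alone. It stood at 32.6, 30.5 and 30.5 CPM with both nutrients and at 23.5, 20.7 and 20.9 CPM with glucose and NH4Cl. On the TMM scale SLC7A2 was thus low in both media that held glucose without glutamine and lay between 29.2 and 35.2 CPM in the libraries of the other 3. The distance from neither nutrient depends on the scaling. For glucose against neither the log2 change was -0.60 on the TMM scale and -0.17 relative to library totals.

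SLC1A4 encodes ASCT1, an exchanger of serine, alanine and other small neutral amino acids (ENSG00000115902, chromosome 2, 64988477 to 65023865, plus strand). Its libraries stood at 25.8, 27.6 and 26.9 CPM with neither nutrient, 92.9, 91.2 and 96.1 CPM with glucose alone and 76.2, 75.6 and 83.6 CPM with glutamine alone. They stood at 26.3, 27.7 and 27.3 CPM with both nutrients and at 83.7, 79.4 and 83.4 CPM with glucose and NH4Cl. On the TMM scale neither and both nutrients overlapped at a low level, and the other 3 media lay well above them. SLC1A5 encodes ASCT2, a main glutamine exchanger of cancer cells (ENSG00000105281, chromosome 19, 46774883 to 46788594, minus strand). It had 151 ± 3.16 CPM with neither nutrient, 242 ± 3.87 CPM with glucose alone, 154 ± 2.26 CPM with glutamine alone, 87.2 ± 3.7 CPM with both nutrients and 211 ± 7 CPM with glucose and NH4Cl. On the TMM scale neither nutrient and glutamine alone overlapped, and both nutrients was lowest. The ratio of SLC1A5 to SLC1A4 per kilobase within a library ran from 4.1 ± 0.173 with glutamine alone to 11.8 ± 0.381 with neither nutrient. The glutamate carriers SLC1A1 and SLC1A3 were scarce. SLC1A1 had 2.48 ± 0.381, 1.05 ± 0.366, 1.46 ± 0.551, 3.65 ± 0.117 and 1.39 ± 0.234 CPM with neither nutrient, glucose alone, glutamine alone, both nutrients and glucose with NH4Cl. SLC1A3 had 2.75 ± 0.417, 0.82 ± 0.15, 0.275 ± 0.112, 1.26 ± 0.33 and 0.766 ± 0.16 CPM in the same order of media. It reached 1 CPM in 7 libraries relative to library totals and in 5 on the TMM scale, the latter with neither or both nutrients.

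SLC38A2 encodes SNAT2, a sodium-coupled carrier known to be induced by amino acid shortage (ENSG00000134294, chromosome 12, 46358189 to 46372867, minus strand). It had 485 ± 21.3 CPM with neither nutrient, 1480 ± 4.79 CPM with glucose alone, 770 ± 8.09 CPM with glutamine alone, 591 ± 5.63 CPM with both nutrients and 1400 ± 30.5 CPM with glucose and NH4Cl. The neighbouring SLC38A1 (ENSG00000111371, chromosome 12, 46183063 to 46270017, minus strand), which encodes SNAT1, had 389 ± 10.2, 1060 ± 13.8, 631 ± 6.27, 399 ± 1.17 and 930 ± 16 CPM in that order of media. Both genes were highest with glucose alone and next with glucose and NH4Cl. Their ratio per kilobase within a library, SLC38A2 to SLC38A1, kept between 1.85 ± 0.0105 and 2.29 ± 0.0363 in the 5 media. SLC38A7 and SLC38A9 are known as carriers of the lysosomal membrane, and SLC38A9 also serves arginine sensing. SLC38A7 stood at 20, 17.8 and 20.5 CPM with neither nutrient, 32.2, 29.7 and 28.6 CPM with glucose alone and 32.2, 32.1 and 30.7 CPM with glutamine alone. It stood at 19.1, 20.3 and 20.6 CPM with both nutrients and at 35.6, 37.2 and 35.6 CPM with glucose and NH4Cl, where it was highest. SLC38A9 had 23.4 ± 0.872, 39.9 ± 1.65, 40.9 ± 2.28, 31 ± 1.78 and 36.5 ± 1.84 CPM with neither nutrient, glucose alone, glutamine alone, both nutrients and glucose with NH4Cl. SLC38A10 was highest with both nutrients, at 85.6 ± 3.5 CPM, and lowest with neither, at 50.6 ± 1.46 CPM. SLC38A6 stayed between 4.78 ± 0.709 and 6.3 ± 1.45 CPM.

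SLC6A9 encodes GLYT1, a glycine carrier driven by sodium and chloride (ENSG00000196517, chromosome 1, 43991500 to 44031467, minus strand). Its libraries stood at 2.21, 2.43 and 1.73 CPM with neither nutrient, 24.6, 28.1 and 29.6 CPM with glucose alone and 28.7, 27.4 and 26 CPM with glutamine alone. They stood at 2.37, 1.67 and 1.92 CPM with both nutrients and at 18.7, 18 and 21.2 CPM with glucose and NH4Cl. Neither and both nutrients overlapped near 2 CPM, glucose alone and glutamine alone overlapped at the top, and NH4Cl lay between. SLC6A6 encodes the taurine carrier (ENSG00000131389, chromosome 3, 14402576 to 14489349, plus strand). It stood at 29.7, 31.5 and 32 CPM with neither nutrient, 16.9, 16.5 and 17 CPM with glucose alone and 35.2, 39.6 and 36.2 CPM with glutamine alone. It stood at 50, 49.5 and 45.7 CPM with both nutrients and at 17.7, 18.3 and 20.1 CPM with glucose and NH4Cl. The taurine carrier was low wherever glucose was given without glutamine and highest with both nutrients. SLC6A15, a carrier of branched-chain amino acids and proline, had 18 ± 1.48, 41.9 ± 0.934, 37.5 ± 1.09, 17.1 ± 0.746 and 39.8 ± 0.468 CPM with neither nutrient, glucose alone, glutamine alone, both nutrients and glucose with NH4Cl. The creatine carrier gene SLC6A8 stayed between 11.5 ± 0.447 and 15.3 ± 1.36 CPM. SLC6A16 was at 1.13 ± 0.269 to 2.88 ± 0.246 CPM, highest with both nutrients. SLC6A17 stood at 4.63, 5.56 and 4.57 CPM with neither nutrient, 6.81, 5.22 and 5.2 CPM with glucose alone and 4.52, 4.49 and 3.72 CPM with glutamine alone. It stood at 5.81, 7.03 and 6.89 CPM with both nutrients and at 4.37, 5.75 and 5.54 CPM with glucose and NH4Cl, and most of these groups overlapped.

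The proton-coupled carriers of the SLC36A family export amino acids from lysosomes or act at the surface. SLC36A1 had 18.3 ± 1.28, 35.6 ± 0.841, 30.4 ± 0.926, 27.2 ± 0.0597 and 37.2 ± 1.86 CPM with neither nutrient, glucose alone, glutamine alone, both nutrients and glucose with NH4Cl. SLC36A4 stood at 21.3, 21.8 and 21.5 CPM with neither nutrient, 19.1, 18.8 and 19.2 CPM with glucose alone and 14.4, 14.5 and 15 CPM with glutamine alone. It stood at 20.8, 22.9 and 21.8 CPM with both nutrients and at 17.3, 16.6 and 17.7 CPM with glucose and NH4Cl. Its lowest medium was glutamine alone, and on the TMM scale neither and both nutrients overlapped at the top. The SLC43A family holds carriers of large neutral amino acids that need no ion gradient. SLC43A1, which encodes LAT3, had 4.03 ± 0.667, 7.98 ± 0.571, 5.94 ± 0.913, 2.84 ± 0.361 and 7.37 ± 0.597 CPM, and SLC43A2, which encodes LAT4, had 21.3 ± 1.69, 24.3 ± 1.55, 33.9 ± 0.761, 20 ± 1.14 and 19.8 ± 1.59 CPM, in the order of media given for SLC36A1. SLC43A2 was highest with glutamine alone and SLC43A1 with glucose alone.

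The other 32 genes of the 7 families did not reach the measuring rule, and 31 of them were below 1 CPM in every library. Their highest count in any library was between 1 and 19, and 15 of them never exceeded 3 counts. For 23 of the 32 the highest level was in 1 of the 3 libraries that held many genes with 1 to 5 counts, so their small differences between media are not described. SLC6A13, a carrier of GABA and taurine, came closest, at 0.978 CPM with glucose alone, 0.526 CPM with glucose and NH4Cl and 0.101 to 0.165 CPM in the other media. The unmeasured genes include SLC6A2, SLC6A3 and SLC6A4, which carry noradrenaline, dopamine and serotonin, and SLC7A9, a light chain known from the kidney.

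**Figure D3:**
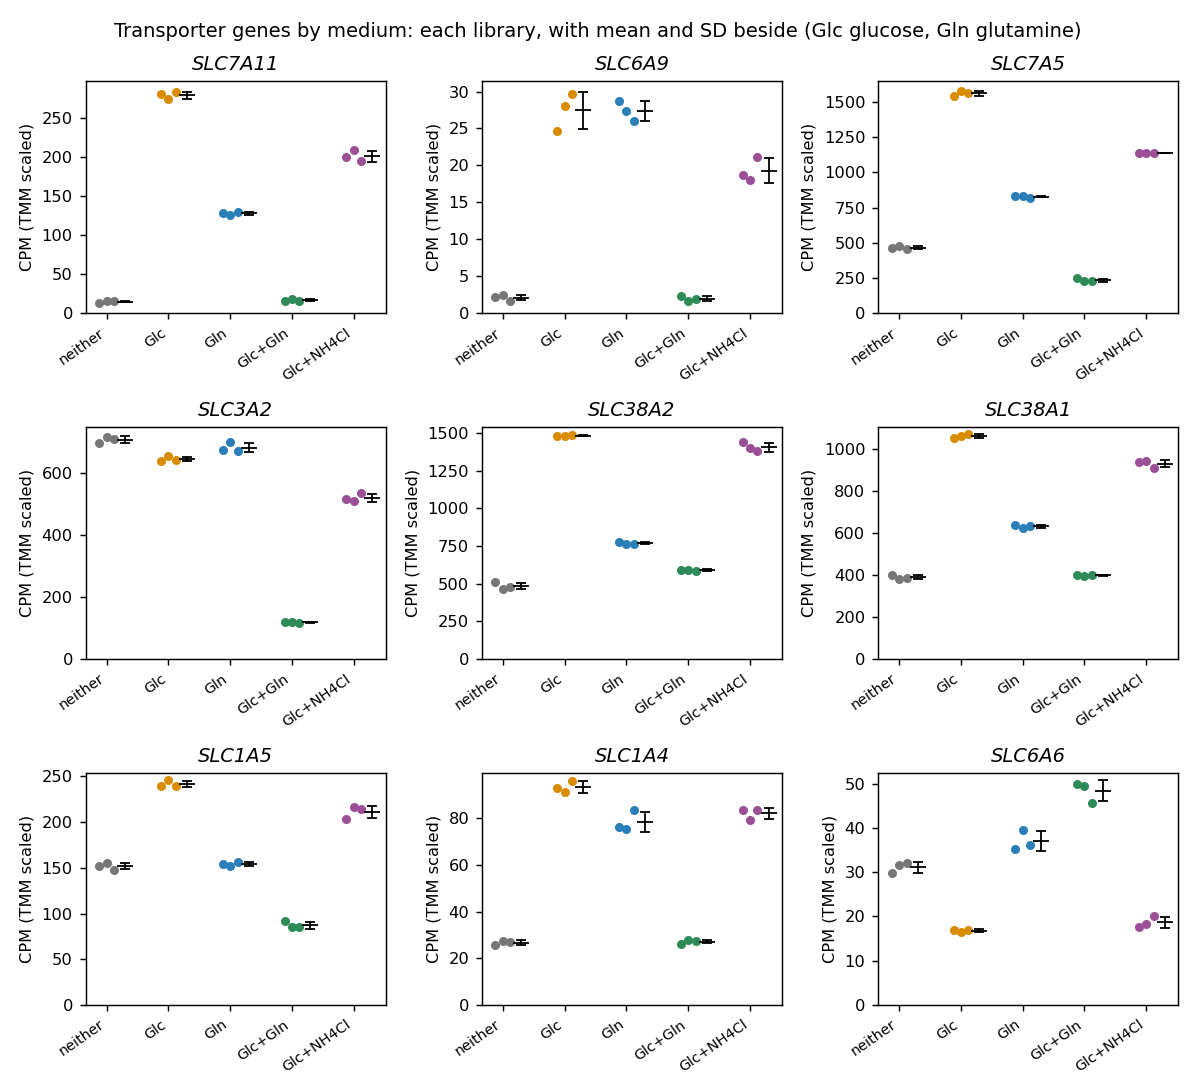
CPM in each library (points) with mean and SD beside them, by medium, for 9 carrier and heavy chain genes. SLC7A11 and SLC6A9 share low levels with neither and both nutrients, SLC3A2 is low with both nutrients only, and SLC6A6 is highest with both nutrients at 45.7 to 50 CPM.

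Glutamine was added to medium with glucose, which asks for its effect when glucose is at hand. The heavy chain SLC3A2 and its light chains SLC7A5 and SLC7A11 fell, as did the glycine carrier SLC6A9 and the neutral amino acid carriers SLC1A4, SLC1A5, SLC38A1 and SLC38A2, and the taurine carrier SLC6A6 rose. Of the 28 measured genes 17 fell and 7 rose by edgeR's quasi-likelihood test (adjusted p under 0.05), and 4 did not pass. Among all 16889 genes tested 33.7% fell and 34.2% rose. Falls of at least 2-fold passed in 11 of the 28, against 6.31% of all genes, and rises of at least 2-fold in 2, against 5.87%. The median log2 change of the 28 was -0.38, and that of all genes was 0.00. The libraries of the compared media did not overlap for 23 of the 28 and for 69.9% of all genes.

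The largest fall was that of SLC7A11, with a log2 change of -4.07 (SE 0.04, adjusted p = 1.21e-160). SLC6A9 fell by 3.78 (SE 0.11), SLC7A5 fell by 2.73 (SE 0.02), SLC3A2 fell by 2.43 (SE 0.023) and SLC1A4 fell by 1.79 (SE 0.044) on the log2 scale. For SLC6A9, 404 bp of exon are shared with CCDC24 on the opposite strand, which was at 7.76 CPM with glucose alone and 10.5 CPM with both nutrients relative to library totals. Those 2 levels of CCDC24 differ in the direction opposite to SLC6A9. In the other media CCDC24 was at 6.05 CPM with neither nutrient, 13.4 CPM with glutamine alone and 9.57 CPM with glucose and NH4Cl. Relative to library totals it was thus, like SLC6A9, higher with each nutrient alone than with neither. For glucose alone this order of CCDC24 depends on the scaling, because the TMM factor was 0.793 with neither nutrient and above 1 with glucose alone. The part of shared reads in the level of SLC6A9 was not tested. Further falls of at least 2-fold were those of SLC43A1, SLC1A5, SLC7A1, SLC38A1, SLC38A2 and SLC6A15. Smaller falls were called for SLC7A7, SLC38A7, SLC36A1, SLC38A9, SLC43A2 and SLC6A8. By role, the heavy chain, both measured ASCT exchangers, both SLC43A carriers, 3 of 4 light chains, 4 of 6 SLC38A carriers and 3 of 6 SLC6A carriers fell.

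Among members that averaged 5 CPM or more, the largest rise was that of SLC6A6, with a log2 change of 1.52 (SE 0.058, adjusted p = 3.01e-62). SLC7A2 rose by 0.50 (SE 0.06), SLC7A6 by 0.44 (SE 0.07), SLC38A10 by 0.25 (SE 0.036) and SLC36A4 by 0.20 (SE 0.068) on the log2 scale. The rises of SLC1A1 and SLC6A16 were of genes below 5 CPM. SLC7A6OS, SLC38A6, SLC6A17 and SLC1A3 did not pass. The rise of SLC36A4 did not pass without the second library with both nutrients (log2 change 0.16, adjusted p = 0.0525), nor did that of SLC6A16 (0.48, adjusted p = 0.0511). The fall of SLC7A7 did not pass when any of 3 libraries was left out (log2 change -0.66 to -0.57, adjusted p of 0.0882 to 0.121), namely the first or second with glucose alone or the second with both nutrients.

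Promoter windows from RefSeq (GRCh38.p14, 250 bases before to 50 after an annotated start) were searched for TGATGNAA on both strands, the core letters of the amino acid response element that ATF4 binds with C/EBP partners. Windows of the length of 300 bases were given for 24 of the 28 measured genes and 45 of the 60. The letters occurred near a start of 6 genes, which was 25% of the 24 and 13.3% of the 45. Over all promoters they occurred for 1217 of 27305 genes (4.46%), or in 3.62% of windows against 14.3% of the windows of the measured genes. With glutamine in glucose medium 5 of the 6 genes fell, as did 17 of the 28 measured genes and 33.7% of all genes. The 17 include those 5 genes and also genes without a window, and the 27305 genes were not limited to measured ones. These shares therefore do not compare genes with and without the letters. The stretches are shown as a description, and a link between the letters and the falls was not tested. Capitals mark the matched letters, and each stretch reads 5′ to 3′ along the gene.
SLC3A2 (chr11:62881725-62881748, plus strand): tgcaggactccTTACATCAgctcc
SLC7A1 (chr13:29595663-29595692, minus strand): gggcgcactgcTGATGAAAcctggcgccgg
SLC1A4 (chr2:64989381-64989410, plus strand): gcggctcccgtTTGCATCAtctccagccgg
SLC1A5 (chr19:46784893-46784922, minus strand): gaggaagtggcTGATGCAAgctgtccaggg
SLC38A1 (chr12:46266502-46266531, minus strand): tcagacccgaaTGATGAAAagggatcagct
SLC1A3 (chr5:36596357-36596386, plus strand): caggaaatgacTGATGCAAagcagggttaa
In SLC3A2 and SLC1A4 the letters lay on the antisense strand, as TTACATCA and TTGCATCA. The matched letters of SLC3A2 and SLC7A1 lay in an exon just after the start, at 38 and 8 bases from it, and those of SLC1A4 and SLC38A1 just before it, at -7 and -4. In SLC1A5 they lay at -97, within an exon of a longer transcript, and in SLC1A3 at -220. These starts are not all the outermost ones. The start used lay 25.6 kb inside the annotated gene for SLC3A2, 3.78 kb inside for SLC1A5, 3.5 kb inside for SLC38A1 and 0.92 kb inside for SLC1A4. That of SLC7A1 was the gene's own start, and that of SLC1A3 lay 9.77 kb before the annotated gene. SLC1A3, the last of these genes, did not pass the test for glutamine. A match of letters describes the sequence and is not a measured site, and the letters being missing from other windows says nothing of the factor. SLC7A11, SLC6A6, SLC6A15 and SLC7A2 had no window in this table.

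NH4Cl was added to glucose medium to ask what ammonium changes. SLC6A9, SLC7A11, SLC7A5 and SLC7A1, which carry glycine, cystine, leucine and arginine, fell, and no change of a measured member reached 2-fold. Other carriers of such amino acids were mixed. SLC43A2 and SLC7A6 fell too, while SLC43A1, SLC6A15 and SLC7A2 did not pass, with log2 changes of -0.12, -0.07 and -0.02. Of the 28 measured genes 11 fell, 1 rose and 16 did not pass by edgeR's quasi-likelihood test. Among all genes 16.9% fell and 12.7% rose. Changes of at least 2-fold passed in 0 of the 28, against 0.201% of all genes lower and 0.385% higher. The median log2 change was -0.12 over the 28 and -0.01 over all genes. The libraries of the compared media did not overlap for 16 of the 28 and for 39.9% of all genes. This comparison and the one before it share the 3 libraries of glucose alone, so their values are not independent of each other.

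SLC6A9 fell by 0.51 (SE 0.07), SLC7A11 fell by 0.47 (SE 0.027, adjusted p = 2.59e-38), SLC7A5 fell by 0.45 (SE 0.018), SLC7A1 fell by 0.37 (SE 0.027) and SLC3A2 fell by 0.31 (SE 0.02) on the log2 scale. SLC1A4, SLC1A5, SLC38A1, SLC38A2, SLC43A2 and SLC7A6 also fell. SLC38A7 alone rose, with a log2 change of 0.26 (SE 0.056, adjusted p = 5.52e-05). The taurine carrier SLC6A6, which rose with glutamine, had a log2 change of 0.15 (SE 0.071, adjusted p = 0.0906) with NH4Cl. In a test against a 1.2-fold change 4 of the 11 falls passed, those of SLC6A9, SLC7A11, SLC7A5 and SLC7A1, and the rise did not. The fall of SLC7A6 did not pass when the first or second library of glucose alone or the first with NH4Cl was left out (log2 change -0.19 to -0.16, adjusted p of 0.0973 to 0.185).

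**Figure D4:**
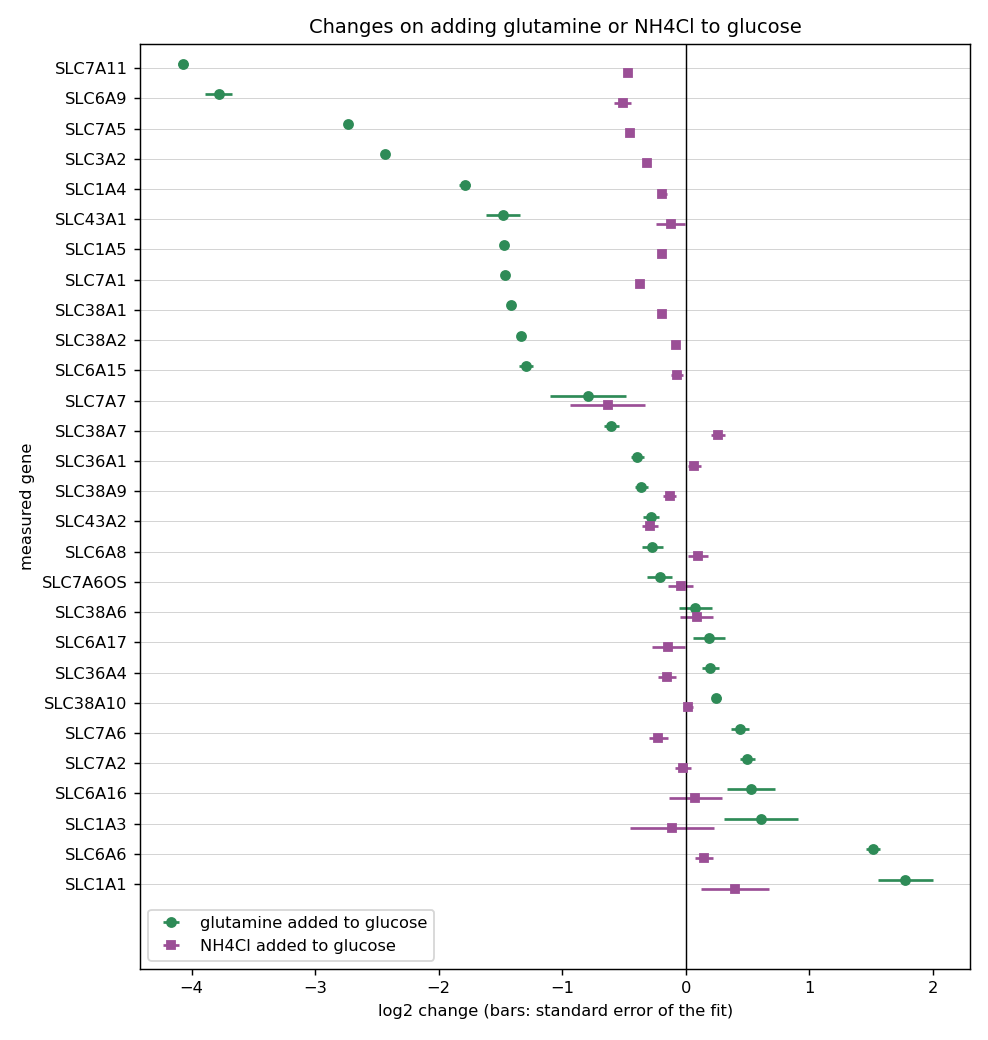
Log2 change of each measured gene with glutamine added to glucose and with NH4Cl added to glucose, with bars for the standard error of the fit. SLC7A11 moved by -4.07 with glutamine and by -0.47 with NH4Cl, and the glucose libraries are shared by both changes.

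The direct comparison of NH4Cl with glutamine, both in glucose medium, put SLC7A11, SLC6A9, SLC7A5 and SLC3A2 well above their level with glutamine, and the taurine carrier below. With NH4Cl in place of glutamine 15 of the 28 were higher, 9 were lower and 4 did not pass, against 31.2% of all genes higher and 33.4% lower. Differences of at least 2-fold passed in 11 upward (4.94% of all genes) and 2 downward (4.51%), SLC6A6 and the scarce glutamate carrier SLC1A1. The median was 0.30 over the 28 and -0.01 over all genes. SLC7A11 was higher with NH4Cl by a log2 difference of 3.59 (SE 0.041, adjusted p = 4.13e-148), SLC6A9 by 3.27 (SE 0.119), SLC7A5 by 2.28 (SE 0.02), SLC3A2 by 2.12 (SE 0.023) and SLC1A4 by 1.60 (SE 0.045). SLC6A6 was lower with NH4Cl, at a log2 difference of -1.37 (SE 0.058, adjusted p = 2.76e-56). SLC7A6 stood at -0.66 (SE 0.073), SLC7A2 at -0.52 (SE 0.061), SLC36A4 at -0.34 (SE 0.07) and SLC6A17 at -0.33 (SE 0.132). SLC43A2, which fell with either addition, was at 20 CPM with glutamine and 19.8 CPM with NH4Cl, and its log2 difference of -0.02 (SE 0.069, adjusted p = 0.846) did not pass. The call for SLC6A17 was lost when the second or the third library with both nutrients or the first with NH4Cl was left out (log2 difference -0.30 to -0.22). Those of SLC1A3 (-0.70 to -0.55) and SLC6A16 (-0.45 to -0.39), both below 5 CPM, were lost in 4 and in 5 of the 6 omissions.

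Glucose was next added to medium that held glutamine, which asks for the effect of glucose in the presence of glutamine. The glycine carrier, the cystine carrier and the heavy chain SLC3A2 fell most, and SLC7A6 rose. Of the 28 genes 15 fell, 9 rose and 4 did not pass by edgeR's quasi-likelihood test, against 33% and 32.6% of all genes. Falls of at least 2-fold passed in 8 (4.64% of all genes) and rises of that size in 2 (5.61%). Those 2 rises were of the scarce glutamate carriers SLC1A1 and SLC1A3, both below 5 CPM. The median was -0.34 over the 28 and -0.01 over all genes. SLC6A9 fell by 3.78 (SE 0.11), SLC7A11 fell by 2.94 (SE 0.044), SLC3A2 fell by 2.52 (SE 0.023, adjusted p = 1.72e-165), SLC7A5 fell by 1.81 (SE 0.02) and SLC1A4 fell by 1.53 (SE 0.045) on the log2 scale. SLC7A6 rose by 0.66 (SE 0.072), SLC6A17 by 0.63 (SE 0.135), SLC36A4 by 0.58 (SE 0.072), SLC38A10 by 0.52 (SE 0.037) and SLC6A6 by 0.38 (SE 0.05). SLC7A2, which was low with glucose alone, had 31.2 ± 1.19 CPM with both nutrients and 30.3 ± 0.992 CPM with glutamine alone, and its difference did not pass (log2 change 0.04, SE 0.056, adjusted p = 0.543). Scaled by library totals, 10 of the 28 rose and 14 fell, and the share of all calls that were higher was 60.8% in place of 49.7%. SLC7A2 was then called as a rise (0.14, adjusted p = 0.0228 by the same test), and the fall of SLC36A1 (-0.06) no longer passed. The call for SLC38A6 was lost in 4 of 6 omissions of a library (log2 change 0.21 to 0.34).

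Glucose alone was compared with neither nutrient to ask what glucose changes without glutamine. Most exchangers rose, among them the light chains SLC7A5 and SLC7A11. On the TMM scale the heavy chain SLC3A2 did not rise with them (log2 change -0.13), but relative to library totals it was called as a rise of 0.30. Of the 28 genes 18 rose, 8 fell and 2 did not pass by edgeR's quasi-likelihood test, against 39.9% and 37.9% of all genes. Rises of at least 2-fold passed in 9 (17.6% of all genes) and falls of that size in 2 (9.81%). Those 2 falls were of the scarce glutamate carriers SLC1A1 and SLC1A3, both below 5 CPM. The median was 0.66 over the 28 and 0.05 over all genes, and the libraries did not overlap for 26 of the 28 and for 78.6% of all genes. SLC7A11 rose by 4.21 (SE 0.043, adjusted p = 4.82e-157), SLC6A9 by 3.68 (SE 0.118), SLC1A4 by 1.80 (SE 0.047), SLC7A5 by 1.75 (SE 0.02) and SLC38A2 by 1.61 (SE 0.019) on the log2 scale. SLC6A6 fell by 0.88 (SE 0.067), SLC7A2 fell by 0.60 (SE 0.062), SLC7A6 fell by 0.54 (SE 0.073), SLC7A6OS fell by 0.47 (SE 0.098) and SLC36A4 fell by 0.18 (SE 0.072).

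The scaling of the medium with neither nutrient bears on these values. Relative to library totals the median of all genes moved up by 0.436 for glucose against neither, by 0.344 for glutamine against neither and by 0.099 for glucose added to glutamine, and the share of calls that were higher went from 51.3% to 74.2% in the first of these and from 50.8% to 74.2% in the next. Then 21 of the 28 rose and 4 fell in each of both comparisons with neither nutrient. SLC3A2, which stood at -0.13 (SE 0.02) for glucose and -0.05 (SE 0.02) for glutamine on the TMM scale, was at 0.30 and 0.29 relative to library totals. SLC36A4 turned to 0.26 for glucose, and SLC7A6 (-0.10) and SLC7A6OS (-0.03) no longer passed there. For glucose against neither, the direction or the call of these 4 genes therefore rests on the scaling. For glutamine against neither, SLC36A4 (-0.21), SLC7A6 (-0.41) and SLC7A6OS (-0.28) kept direction and call under library totals. The call of SLC43A2, which rose by 0.19 (SE 0.069), was lost without the first library of neither nutrient or the second of glucose alone (0.12 to 0.13). Overlaps of neither nutrient with another medium, as given above for SLC7A11, SLC1A4, SLC1A5 and SLC36A4, also depend on the scaling. Relative to library totals SLC1A4 was at 2.24 for glucose against neither and -1.78 for glutamine added to glucose. On the TMM scale these were 1.80 and -1.79.

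Glutamine alone was compared with neither nutrient in the same way. SLC6A9, SLC7A11 and SLC1A4, which carry glycine, cystine and serine, rose most, and SLC7A6 fell. Of the 28 genes 17 rose, 8 fell and 3 did not pass by edgeR's quasi-likelihood test, against 37% and 35.8% of all genes. Rises of at least 2-fold passed in 5 (13.5% of all genes) and falls of that size in 1 (6.26%), the scarce glutamate carrier SLC1A3. The median was 0.48 over the 28 and 0.02 over all genes. SLC6A9 rose by 3.68 (SE 0.118), SLC7A11 by 3.09 (SE 0.048, adjusted p = 1.58e-125), SLC1A4 by 1.55 (SE 0.049), SLC6A15 by 1.06 (SE 0.063) and SLC7A1 by 0.96 (SE 0.031) on the log2 scale. SLC7A6 fell by 0.75 (SE 0.075), SLC7A6OS fell by 0.63 (SE 0.1), SLC36A4 fell by 0.56 (SE 0.076), SLC38A6 fell by 0.40 (SE 0.143) and SLC7A2 fell by 0.14 (SE 0.059). The glutamine exchanger SLC1A5 had a log2 change of 0.02 (SE 0.03, adjusted p = 0.49), which did not pass, and 0.37 relative to library totals, which did. SLC7A2 turned to 0.20 under library totals, and SLC38A6 (-0.05) did not pass there. Calls were lost without single libraries of either medium for SLC3A2 (-0.05 to -0.04), SLC6A8 (0.16 to 0.20), SLC7A2 (-0.13 to -0.10), SLC38A6 (-0.30 to -0.23) and SLC7A7 (0.62 to 0.89). This comparison shares the libraries of neither nutrient with the one before it.

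A pattern chosen after the values were seen was high levels with each nutrient alone. For 13 of the 28 genes every library of glucose alone and of glutamine alone lay above every library of neither and of both nutrients, which held for 11.2% of all genes. They were SLC1A4, SLC36A1, SLC38A1, SLC38A2, SLC38A7, SLC38A9, SLC43A1, SLC43A2, SLC6A15, SLC6A9, SLC7A1, SLC7A11 and SLC7A5. For 3 genes, SLC1A1, SLC36A4 and SLC7A6, every such library lay below, which held for 12.1% of all genes. Relative to library totals 15 genes lay above (13.1% of all genes), SLC1A5 and SLC3A2 being added, and 0 lay below (8.27%). Without the 3 libraries with many low-count genes 14 lay above (13% of all genes) and 4 below (13.7%).

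The interaction term asked whether the change with glutamine differed in the presence and absence of glucose. SLC7A11, SLC6A9, SLC7A5 and SLC1A4 rose with glutamine where glucose was absent and fell where it was present. The term was negative for 17 of the 28 genes and positive for 8 by edgeR's quasi-likelihood test, and 3 did not pass (SLC38A10, SLC6A16 and SLC6A17). Of all genes 38% were called negative and 36.8% positive, and the median was -1.15 over the 28 and -0.03 over all genes. Relative to library totals the median of all genes moved by -0.337 and the share of calls that were positive went from 49.2% to 33.7%. The term was -7.45 (SE 0.161) for SLC6A9, -7.16 (SE 0.062, adjusted p = 1.9e-170) for SLC7A11, -3.56 (SE 0.028) for SLC7A5 and -3.34 (SE 0.065) for SLC1A4 on the log2 scale. Such terms are named here for called genes that averaged 5 CPM or more. The glutamate carriers SLC1A1 and SLC1A3, both below 5 CPM, were called with positive terms at a median of 3.2. Relative to library totals their terms were 2.22 and 3.51. Among the genes of 5 CPM or more the term was 1.26 (SE 0.083, adjusted p = 1.91e-33) for SLC6A6, 1.2 (SE 0.103) for SLC7A6, 0.75 (SE 0.102) for SLC36A4 and 0.64 (SE 0.084) for SLC7A2. For SLC38A10 it was 0.01 (SE 0.057, adjusted p = 0.843), with rises in both settings, but relative to library totals it was -0.32 (adjusted p = 8.1e-08) and was called. The term of SLC7A6OS, 0.41 on the TMM scale, was 0.08 relative to library totals and did not pass. The call for SLC38A6 was lost in 4 of 12 omissions of a library (0.32 to 0.41) and that for SLC7A6OS without the second library with both nutrients (0.32).

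**Figure D5:**
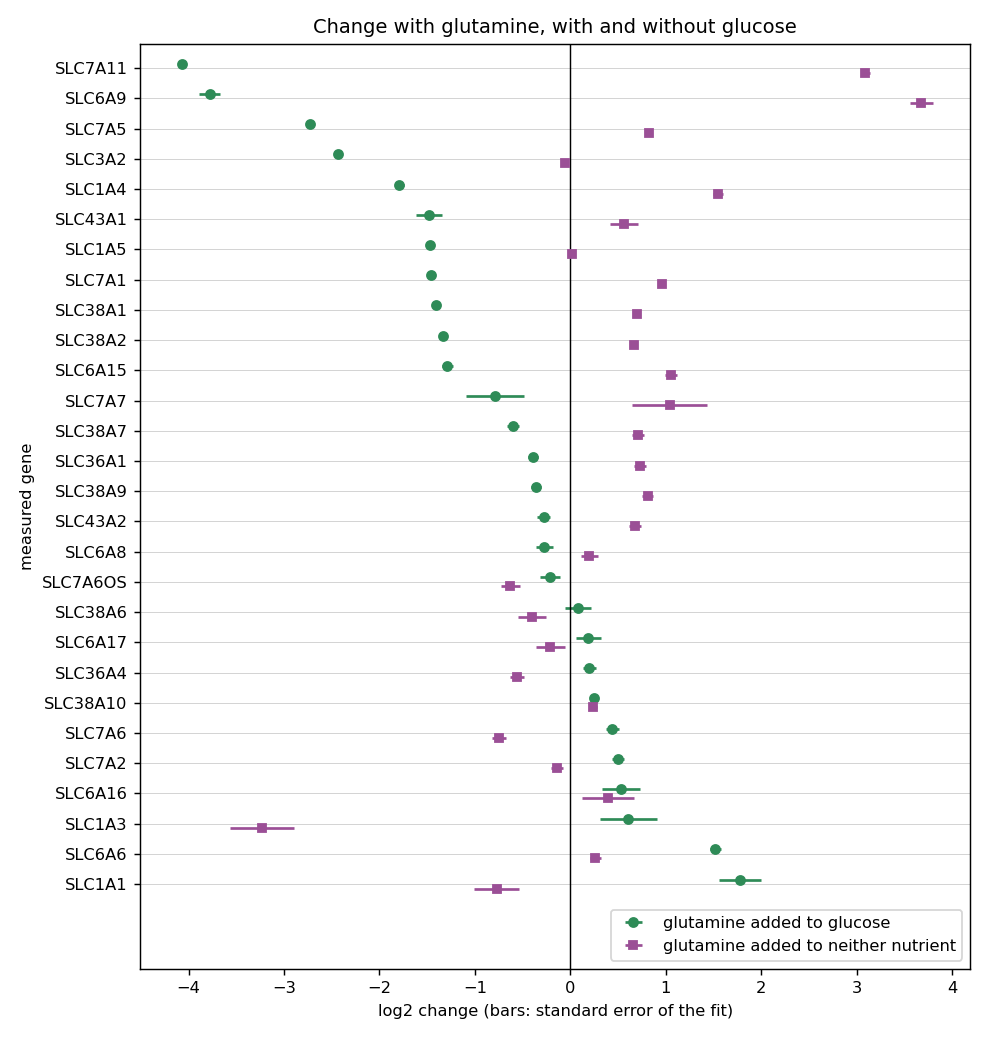
Log2 change of each measured gene with glutamine in medium with glucose (circles) and without it (squares), with bars for the standard error of the fit. SLC7A11 moved by -4.07 with glucose present and by 3.09 without it, while SLC38A10 rose by 0.25 and 0.24 on this TMM scale and by 0.26 and 0.59 relative to library totals.

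Other genes of amino acid supply were followed as lists. Their counts stand beside 33.7% of all genes lower and 34.2% higher with glutamine in glucose medium, and 16.9% lower and 12.7% higher with NH4Cl. Of 12 genes of amino acid stress signalling, 7 fell and 4 rose with glutamine, with a median log2 change of -1.88. TRIB3, a target of ATF4, fell by 4.46 (SE 0.03), DDIT3 fell by 4.05 (SE 0.044) and PPP1R15A fell by 3.01 (SE 0.029) on the log2 scale. With NH4Cl added to glucose 6 of the 12 fell and 2 rose, with a median of -0.08. There CEBPG fell by 0.29 (SE 0.023), TRIB3 fell by 0.26 (SE 0.022) and CEBPB fell by 0.22 (SE 0.031). TRIB3 stood at 68.9 CPM with neither nutrient, 656 CPM with glucose alone, 360 CPM with glutamine alone, 29.8 CPM with both nutrients and 549 CPM with glucose and NH4Cl. ATF4 itself stood at 524 CPM with neither nutrient, 611 CPM with glucose alone and 545 CPM with glutamine alone. It stood at 173 CPM with both nutrients and 569 CPM with glucose and NH4Cl, and was thus low with both nutrients only. Other genes of the list had other orders. PPP1R15A had 2020 CPM with neither nutrient and 262 CPM with glucose alone, DDIT3 was highest with glutamine alone at 255 CPM, NUPR1 with NH4Cl at 10.4 CPM and ATF5 with neither nutrient at 49.8 CPM.

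Of 16 tested genes of amino acid sensing for mTORC1, the kinase complex that couples amino acids to growth, 8 rose (34.2% of all genes did) and 3 fell (33.7%) with glutamine, with a median of 0.13. SESN2, a leucine sensor, fell by 4.44 (SE 0.034), and the scaffold genes LAMTOR1 and LAMTOR4 rose by 0.54 (SE 0.049) and 0.38 (SE 0.038). With NH4Cl 7 of the 16 rose and 1 fell, with a median of 0.17. SESN2 fell by 0.34 (SE 0.023), and the Rag GTPase genes RRAGD and RRAGC rose by 0.67 (SE 0.048) and 0.40 (SE 0.058). Of 6 tested genes of transporter turnover, which hold arrestin-like adaptors and ubiquitin ligases, 4 fell and 1 rose with glutamine (median -0.56), with ARRDC3 at -0.98 (SE 0.036), ARRDC4 at -3.05 (SE 0.181) and ARRDC2 at -0.80 (SE 0.062). With NH4Cl 4 fell and 1 rose (median -0.15), and ARRDC4 stood at -1.29 (SE 0.143). Of 6 tested carriers of amino acids and peptides outside the 7 families, 3 rose and 1 fell with glutamine (median 0.11). SLC16A10, which carries aromatic amino acids, rose by 0.75 (SE 0.123). With NH4Cl 2 rose and 0 fell (median 0.16), and CTNS, which exports cystine from lysosomes, rose by 0.44 (SE 0.068).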

How the data were processed

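The deposited table holds raw counts of reads per Ensembl gene in 15 libraries of poly(A) RNA made with a stranded kit, per the labels' protocols. GRCh38.p12, Subread 1.5.1, featureCounts and HISAT2 2.1.0 are listed, with no roles, in the submitters' processing notes. Not given in the sources used here are the annotation release, the handling of multimapping reads and the strand setting. Copies such as SLC6A10P (at most 60 counts) and SLC7A5P1 (at most 39) could share reads with SLC6A8 and SLC7A5. Names, types and positions came from GENCODE 29 (Ensembl 94), which holds 58275 of 58395 gene IDs.

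Counts were TMM-scaled and tested two-sided by edgeR's quasi-likelihood test (edgeR 4.0.16, R 4.3.3) in a single fit of all libraries with a mean per medium, robust estimation and 10 residual degrees of freedom. The filterByExpr filter kept 16889 genes, 28 of them measured members. P-values were adjusted by Benjamini-Hochberg over all genes of a comparison and called under 0.05. The biological coefficient of variation was 0.0221. Residuals of libraries with equal replicate numbers did not correlate (30 pairs, median -0.001), so libraries were not paired.

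In each comparison the 5 largest rises and falls among called members with a mean of at least 5 CPM were named with their change (4 of each for the interaction), and library values were given for the 3 largest. From the other lists came up to 3 genes by smallest p. Members and lists were chosen with earlier results of these data known. Alternatives were DESeq2 size factors, library totals, no low-count filter, a filter at 1 CPM in 3 libraries, DESeq2 1.42.0 with its Wald test, the compared groups alone, a replicate block, a test against a 1.2-fold change and leaving out each library. A fit without the 3 libraries with many low-count genes was added after the data were seen.

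On simulated data shaped like NH4Cl added to glucose (16408 genes), 31 of 50 genes changed 1.2-fold, 42 of 50 changed 1.5-fold and 49 of 50 changed 2-fold were called, as were 10 of 16208 unchanged genes.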

Additional observations from a re-analysis of the deposited data

Results flagged for a closer look

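The change with glutamine differed in the presence and absence of glucose, by the interaction term of edgeR's quasi-likelihood test, for 8 genes. They were singled out by its size among called genes that averaged 5 CPM or more. The scarcer glutamate carriers SLC1A1 and SLC1A3 were called with positive terms as well, at a median of 3.2. The term was -7.45 for SLC6A9, -7.16 for SLC7A11, -3.56 for SLC7A5 and -3.34 for SLC1A4 on the log2 scale, and each of these genes rose with glutamine in its absence and fell in its presence. It was 1.26 for SLC6A6, which rose in both settings and more with glucose. It was 1.2 for SLC7A6, 0.75 for SLC36A4 and 0.64 for SLC7A2, each of which fell with glutamine alone and rose with glutamine in glucose medium. For SLC7A2 the fall with glutamine alone turned to 0.20 relative to library totals, and SLC7A6 shares exon bases with SLC7A6OS.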

How the results depend on the processing

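Relative to library totals the number of members that fell went from 8 to 4 for glucose against neither nutrient and from 8 to 4 for glutamine against neither. SLC36A4 turned from -0.18 to 0.26 in the former and SLC7A2 from -0.14 to 0.20 in the latter. In the test against a 1.2-fold change the number that rose with glutamine in glucose medium went from 7 to 4. With NH4Cl added to glucose 0 rose in place of 1 and 4 fell in place of 11, with NH4Cl in place of glutamine 4 were lower in place of 9, and for glutamine against neither nutrient 5 fell in place of 8. Leaving out each library in turn gave 5 to 9 rises and 17 falls for glutamine added to glucose, 1 rise and 10 to 12 falls for NH4Cl added to glucose, and 15 to 16 higher and 6 to 8 lower for NH4Cl in place of glutamine. It gave 8 to 9 rises and 15 to 16 falls for glucose added to glutamine, 17 to 18 rises and 8 to 9 falls for glucose against neither, 15 to 17 rises and 6 to 8 falls for glutamine against neither, and 24 to 26 members with an interaction in place of 25. A replicate block changed 0 calls of members, with 17 falls and 7 rises for glutamine added to glucose as without it. The other alternatives kept every count of members within 1.5 times its value. Depth limits genes near 1 CPM (SLC1A1, SLC1A3, SLC6A16 and SLC7A7), and the scaling of the medium with neither nutrient limits small changes against it. The cause of these shifts was not tested.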
